A study of Mus musculus with 6 samples.

Results

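The genes for the proteasome, its activators and its assembly factors were followed in microglia with and without Atg7. They were taken by name: protein-coding genes whose symbol begins with Psma, Psmb, Psmc, Psmd, Psme, Psmf or Psmg and a digit, leaving out the interferon-inducible subunits Psmb8, Psmb9 and Psmb10. This gave 47 of the 55487 genes in the count table. By role they were 8 genes of the alpha rings of the 20S core, 8 of its beta rings, 6 ATPases and 11 non-ATPase subunits of the 19S regulatory particle, 6 activators and inhibitors, and 7 assembly chaperones. The last gene, Psmc3ip, shares the prefix but encodes a protein of meiotic recombination and no proteasome subunit. Of the 47 genes, 46 had enough reads to be tested. The gene left out was Psmb11, the beta subunit of the thymic proteasome, with 2 reads in knockout 1, 1 read in control 1 and 0 in the other libraries.

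The proteasome degrades proteins tagged with ubiquitin. Its 20S core is a barrel of alpha and beta rings, in which Psmb5, Psmb6 and Psmb7 encode the constitutive catalytic subunits, and the 19S particle binds the tagged protein, removes the ubiquitin, unfolds the chain and feeds it into the barrel. Other caps, encoded by Psme1 to Psme4, open the barrel without ubiquitin. Autophagy, which needs ATG7 to attach LC3 to membranes, is the other main route of protein degradation in the cell, and interferon-stimulated microglia exchange catalytic subunits for the inducible set.

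The 6 mice were females aged 20 months. The 3 knockouts were Atg7-fl/fl;Cx3cr1-CreERT2, that is, homozygous for floxed Atg7 and carrying an inducible Cre recombinase at the Cx3cr1 locus, a gene of microglia and other myeloid cells. The 3 controls were Atg7-fl/fl littermates without the Cre allele, so loss of Atg7 and presence of Cre cannot be told apart. The inducing treatment and the time of deletion are not given in the labels used here. Live CD45int CD11b+ cells were sorted from the cortex of each mouse, and reads of amplified cDNA were counted per gene. In such bulk samples, fewer cells of a type and less RNA per cell cannot be told apart.

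Depth was uneven: knockouts 1 to 3 had 33129233, 3789208 and 21282335 reads, and controls 1 to 3 had 39389527, 38798703 and 1254380. Knockout 2 and control 3 are the 2 shallow libraries. Atg7 was at 25.01, 26.5 and 23.7 CPM, reads scaled by library size, in the knockouts, against 65.7, 66.4 and 56.6 CPM in controls, which gave a log2 fold change of -1.33 with an SE of 0.19 and an edgeR adjusted p of 0.0147. Exons outside the deleted part are still counted. This call was lost when any library other than control 3 was left out, with edgeR adjusted p up to 0.135. Cx3cr1, whose locus holds the Cre, had a log2 fold change of -1.17 (edgeR adjusted p = 0.00126). All 8 microglial markers were expressed in every library and summed to 39342 to 44348 CPM in knockouts and 52186 to 56368 CPM in controls. All 8 had a log2 fold change below 0, and edgeR called 1 of them, Cx3cr1. Border macrophage markers summed to 256, 169.6 and 64.3 CPM in knockouts and 15.5, 40.04 and 84.9 CPM in controls, and neutrophil markers to 901, 247 and 90.8 CPM in knockouts and 20.5, 165 and 168 CPM in controls. The log2 fold change was above 0 for all 8 border macrophage markers and for the 5 neutrophil markers tested. The edgeR test called 0 of these markers, and DESeq2 called 3, the border macrophage markers Pf4, Ms4a7 and Clec12a; Lyve1 had 0 reads in control 1, and Pf4 and Clec12a 0 in control 3. Neuronal markers summed to at most 3.72 CPM in knockouts and 5.50 CPM in controls. The part of these markers in the proteasome values was not tested.

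None of the 46 tested proteasome genes was called different between knockouts and controls. The edgeR quasi-likelihood test called 0 of 46 at a Benjamini-Hochberg adjusted p under 0.05, with a smallest adjusted p of 0.999, while it called 0.0443% of all 15787 genes tested. DESeq2 called 0 of 46 with a smallest adjusted p of 0.320, against 0.526% of all genes. Limma voom called 0 of 46 with a smallest adjusted p of 0.0659, against 0.095% of all genes. At an unadjusted edgeR p under 0.05, 0 members were higher and 1, Psme3, was lower, where 2.34% of all genes tested were higher and 1.98% lower. The groups of 3 libraries did not overlap for 1 member that was higher in knockouts, Psme4, and for 1 that was lower, Psmd11. Over all genes the corresponding shares were 6.59% and 4.47%.

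The fold changes were small and, for most subunits, narrowly bounded. The fitted log2 fold change of knockout over control was above 0 in 27 and below 0 in 19 of the 46 members, against 52.5% of all genes above 0. Its median was 0.04 over the members and 0.02 over all genes tested, and 40 of the 46 members lay within 0.25 of 0. The 95% interval lay wholly inside a 1.5-fold change in either direction for 31 members, against 18.1% of all genes tested. Intervals narrow with the level of a gene: of the 2927 tested genes with 33.8 to 124.9 CPM, the range between the quartiles of the members, 52.9% had such an interval. The median size of the log2 fold change was 0.12 in the members and 0.14 in those 2927 genes.

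**Figure D1:**
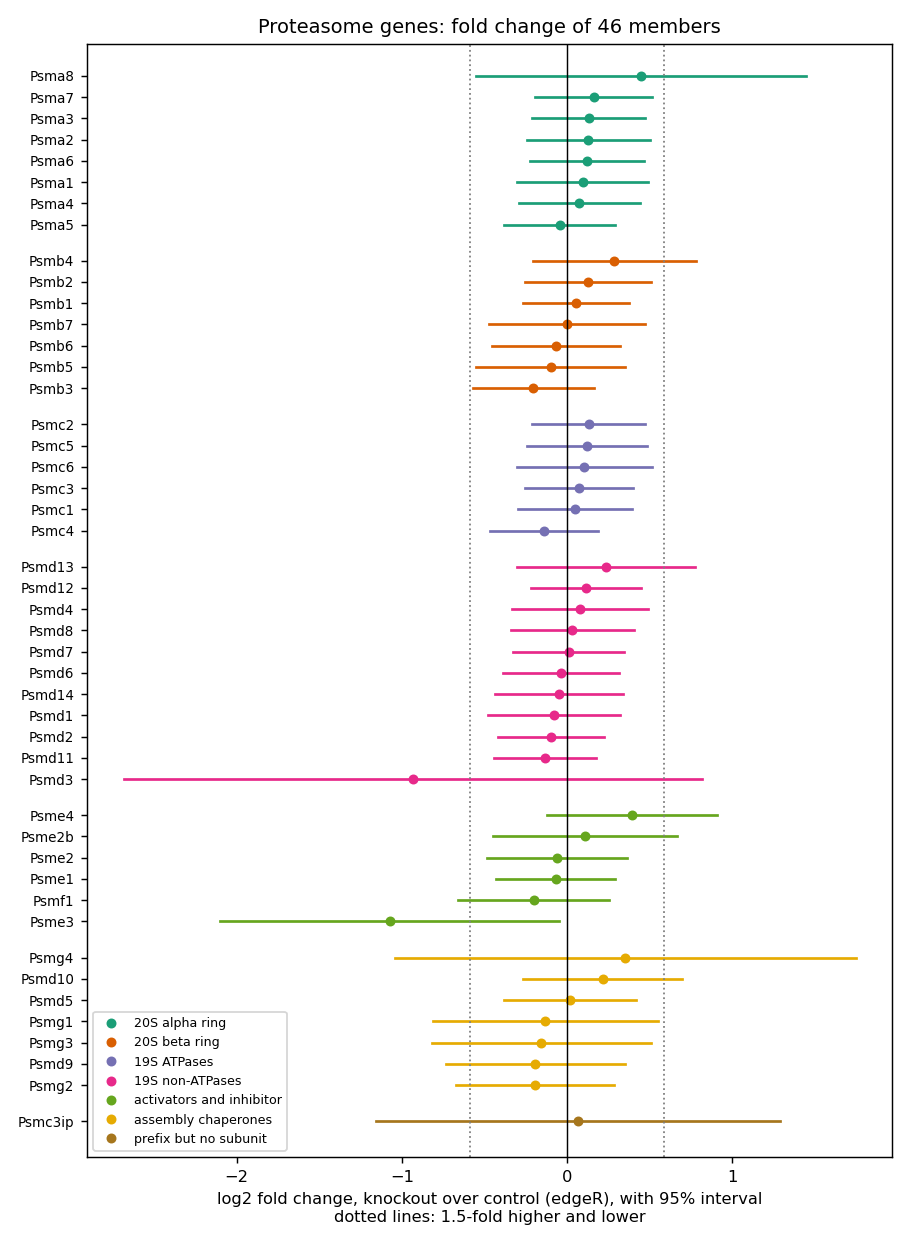
Log2 fold change of knockout over control for the 46 tested proteasome genes (points) with 95% intervals from the edgeR fit (bars), by class; the dotted lines mark a 1.5-fold change. The interval of Psme3, from -2.10 to -0.05, is the only one that leaves out 0, and 31 intervals lie between the dotted lines.

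Which side of 0 the members took depended on control 3, the shallowest library. Its median member had 107.5 reads, against 386.5 in knockout 2 and 1969 to 3797 in the other 4. It was the lowest of the 6 libraries for 24 of the 46 members (52.2%), where it was the lowest for 37.9% of all genes tested. The median member deviated from its own mean over the 6 libraries by 0.03, 0.06 and -0.0045 on a log2 scale in knockouts 1 to 3 and by 0.07, 0.04 and -0.23 in controls 1 to 3. All tested genes had a median deviation of -0.13 in control 3. Without control 3, 15 of 46 members were above 0 and their median log2 fold change was -0.05, with 0.01 over all genes. Without both shallow libraries, 13 were above 0 and the median was -0.06.

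**Figure D2:**
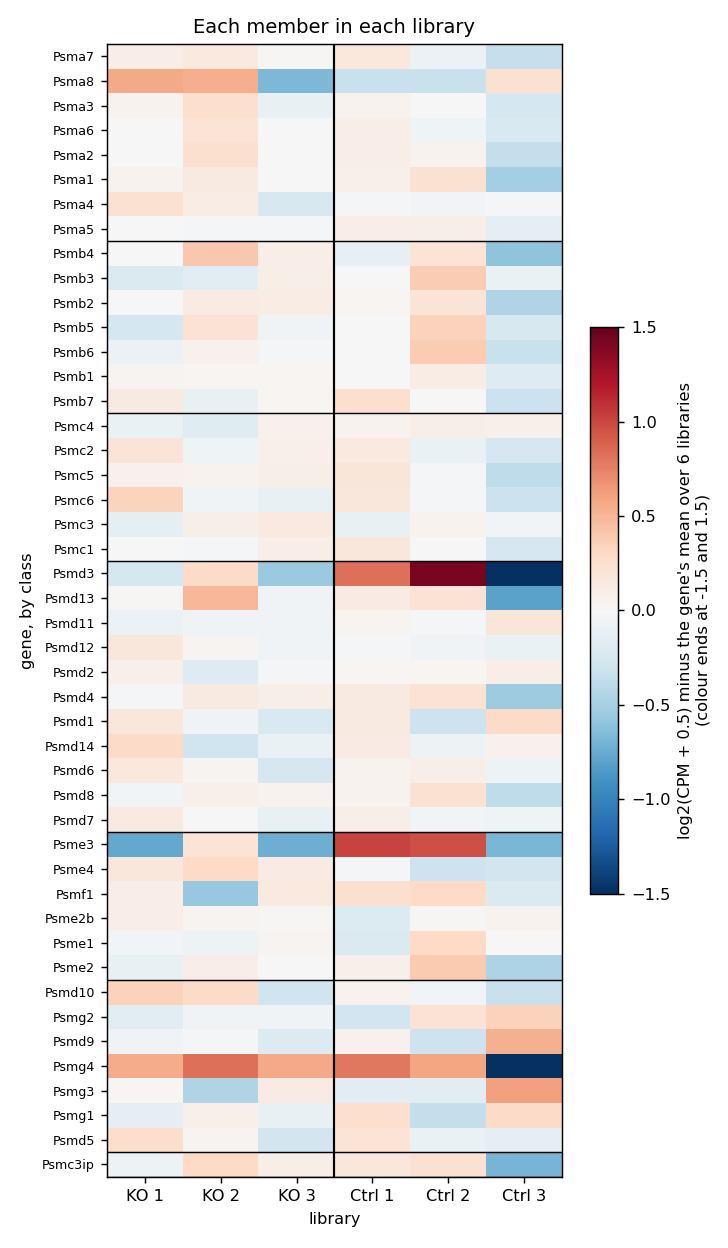
Log2(CPM + 0.5) of each tested member in each library, minus the mean of the gene over the 6 libraries, with knockouts left of the vertical line and controls right of it and genes ordered by class. Control 3 holds the lowest value for 24 of 46 members, and the rows of Psmd3, Psme3 and Psmg4 carry the strongest colours.

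Summed over all members, the knockouts had 4242, 4265 and 4107 CPM and the controls 4353, 4458 and 3681 CPM. The sums averaged 4205 ± 85.6 CPM in knockouts and 4164 ± 422 CPM in controls (SD, n = 3 each), a difference smaller than the spread of the controls. All 3 knockouts lay below controls 1 and 2 and above control 3, the shallowest library. The make-up of the sum differed little. The 20S core took 39.3% ± 1.34 of it in knockouts and 38.1% ± 1.85 in controls (SD, n = 3 each, here and in the next sentences). Within the core, the alpha ring took 21.2%, 22.7% and 20.2% in knockouts and 20.9%, 19.7% and 19.3% in controls. These groups overlapped, although the means, 21.4% ± 1.25 in knockouts and 19.96% ± 0.809 in controls, differed by more than either SD. The 19S particle took 47.3% ± 1.17 in knockouts and 47.6% ± 2.12 in controls. The activators took 8.44% ± 0.414 in knockouts and 9.19% ± 0.997 in controls, and the assembly chaperones 4.85% ± 0.45 in knockouts and 5.01% ± 0.728 in controls. The ratio of summed 19S to summed 20S CPM was 1.27, 1.13 and 1.22 in knockouts and 1.25, 1.14 and 1.37 in controls, so the groups overlapped.

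**Figure D3:**
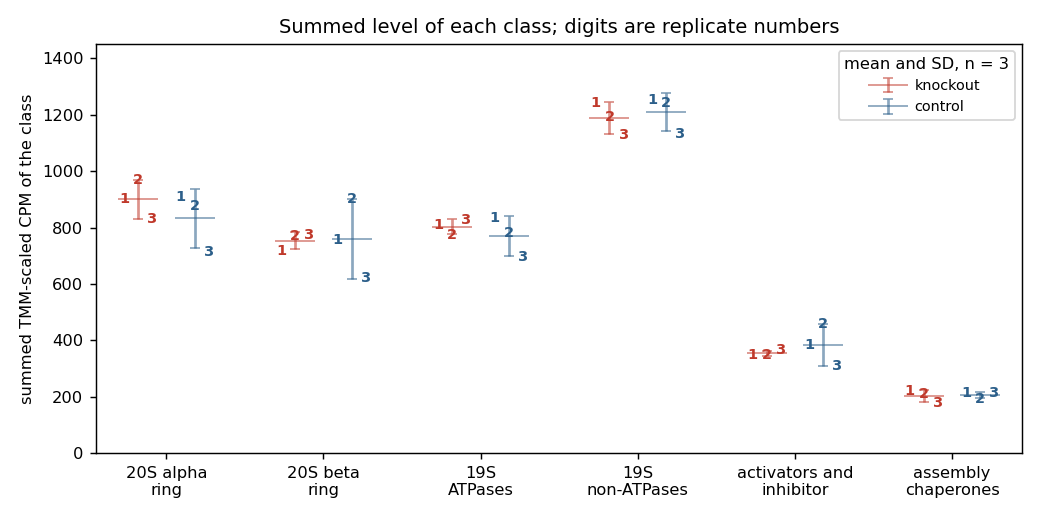
Summed TMM-scaled CPM of the members of each class in each library; digits are replicate numbers, and bars give the mean and SD of 3 knockouts (left) and 3 controls (right). The groups overlap in all 6 classes.

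Divided by the length of the principal transcript in kilobases (kb), so that genes can be compared with each other, the members spanned from 2.28 to 224 CPM per kb over the 6 libraries. Psmb6, a catalytic subunit, was the highest and Psmc3ip the lowest of the genes tested. The median level of the alpha ring genes was 75.5 CPM per kb in knockouts and 74.6 in controls, and that of the beta ring genes was 106 in knockouts and 102 in controls. The 19S ATPases had a median of 90.5 CPM per kb in each group, and the 19S non-ATPases 59.1 in knockouts and 56.9 in controls. Activators and inhibitors had 19.2 CPM per kb in knockouts and 19.8 in controls. Assembly chaperones, which do not stay in the finished particle, had 16.9 in each group. Genes whose products stand side by side in a ring were not at one level: in knockouts the beta ring ran from 25.9 CPM per kb for Psmb7 to 219.5 for Psmb6.

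**Figure D4:**
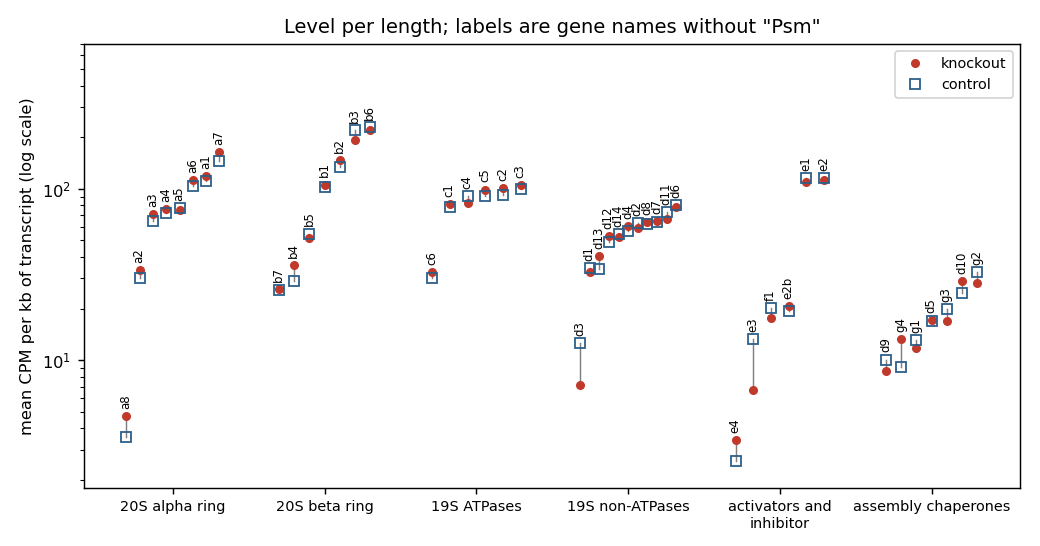
Mean CPM per kb of transcript (log axis) of each tested member in knockouts (filled circles) and controls (open squares), by class and, within a class, by level. Most pairs of symbols overlap; Psme3 and Psmd3 have the widest gaps among genes above 5 CPM per kb in each group.

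Of the 8 alpha ring genes, which form the outer rings and the gate of the barrel, 7 had a log2 fold change above 0 and 1 below 0, and 0 passed the test. The median was 0.13 with control 3 and 0.03 without it, with 5 of 8 then above 0. Their summed level was 899 ± 68.8 CPM in knockouts and 832 ± 106 CPM in controls (SD, n = 3 each). Psma7 had 151, 156 and 142 CPM in knockouts, against 157, 132 and 111 CPM in controls. The groups overlapped, and the log2 fold change was 0.16 (SE 0.17, 95% interval -0.19 to 0.52). Psma3 had 199, 229 and 178 CPM in knockouts and 198, 193 and 160 CPM in controls, a log2 fold change of 0.13 (SE 0.16, 95% interval -0.21 to 0.47). Psma8 encodes an alpha subunit known from testis, where it takes the place of the Psma7 product. It had 10.0, 9.87 and 3.95 CPM in knockouts and 5.13, 5.14 and 7.86 CPM in controls, a log2 fold change of 0.45 (SE 0.47) with 10 reads behind the value of control 3. Knockout 3 was the lowest library and the other 2 knockouts the highest. Per kb it stood at 0.0283 of Psma7 in knockouts and 0.0256 in controls.

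Of the beta ring genes, 4 of the 7 tested lay above 0 and 3 below, with a median log2 fold change of 0.0018, and 0 passed the test. Without control 3, 1 of 7 lay above 0 and the median was -0.12. Their sum was 754 ± 31.2 CPM in knockouts and 759 ± 141 CPM in controls (SD, n = 3 each). With all 6 libraries, the catalytic genes were close to their control levels. Psmb5, of the chymotrypsin-like site, had 39.4, 55.1 and 45.5 CPM in knockouts and 47.4, 60.3 and 40.1 CPM in controls. Psmb6, of the caspase-like site, had 166, 185 and 175 CPM in knockouts and 178, 231 and 139.9 CPM in controls. Psmb7, of the trypsin-like site, had 32.5, 27.3 and 30.3 CPM in knockouts and 35.4, 29.8 and 23.6 CPM in controls. The groups overlapped for all 3. Their log2 fold changes were -0.10, -0.07 and 0.0018, and the lower ends of their 95% intervals were -0.55, -0.45 and -0.47. Without control 3 the log2 fold changes were -0.23, -0.23 and -0.12, and without both shallow libraries -0.35, -0.27 and -0.06. Among the structural subunits, Psmb4 had 37.7, 49.6 and 40.3 CPM in knockouts and 34.4, 43.3 and 24.4 CPM in controls, a log2 fold change of 0.29 (SE 0.23). Psmb3 had 135, 139 and 166 CPM in knockouts and 156, 204 and 146 CPM in controls, a log2 fold change of -0.21 (SE 0.17). Psmb2 had 120.1, 129.9 and 129.8 CPM in knockouts and 122, 137 and 87.2 CPM in controls, a log2 fold change of 0.13 (SE 0.18). In these 6 genes the groups overlapped.

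The inducible catalytic subunits, which replace the constitutive ones after interferon, were taken as a related list. Of Psmb8, Psmb9 and Psmb10, 2 lay above 0 and 1 below, 0 passed the test, and the median log2 fold change was 0.03. The level of Psmb8 per kb was 2.08, 1.40 and 1.75 times that of Psmb5, the subunit it replaces, in knockouts and 1.62, 1.63 and 1.44 times in controls. Psmb10 per kb was 3.26, 5.17 and 4.48 times Psmb7 in knockouts and 3.28, 4.86 and 5.43 times in controls. Psmb9 per kb was 0.226, 0.189 and 0.229 of Psmb6 in knockouts and 0.197, 0.186 and 0.219 in controls. The 3 ratios of inducible to constitutive subunit thus overlapped between the groups, and they differed more between subunits than between genotypes.

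The 6 ATPases, which form the ring that unfolds substrates, had the narrowest set of fold changes among the 6 member classes: -0.14 to 0.13 on the log2 scale, with 5 above 0, and all 6 had an interval inside a 1.5-fold change. Without control 3, 2 lay above 0 and the median was -0.02, against 0.09 with it. Their sum was 804 ± 28.0 CPM in knockouts and 770 ± 70.9 CPM in controls (SD, n = 3 each). Psmc4 had 116, 109 and 129.8 CPM in knockouts and 128.5, 131 and 130.4 CPM in controls, a log2 fold change of -0.14 (SE 0.15, 95% interval -0.46 to 0.19). The controls lay together at and just above the upper end of the range of the knockouts. Psmc2 had 196, 165 and 182 CPM in knockouts and 190.4, 160.0 and 145 CPM in controls, a log2 fold change of 0.13 (SE 0.16). Psmc5 had 129.9, 129 and 132 CPM in knockouts and 140.0, 123 and 95.1 CPM in controls, a log2 fold change of 0.12 (SE 0.17). The 3 knockout values of Psmc5 lay close together and inside the range of the controls.

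Of the 11 non-ATPase genes of the 19S particle, 5 lay above 0 and 6 below, and 0 passed the test. The median log2 fold change was -0.03, and 9 had an interval inside a 1.5-fold change. These 9 include Psmd14, the deubiquitinase that strips ubiquitin from the substrate (log2 fold change -0.05, 95% interval -0.44 to 0.34), and Psmd4, a ubiquitin receptor (0.08, 95% interval -0.33 to 0.49). They also include Psmd2, which binds shuttle factors (-0.10, 95% interval -0.41 to 0.22). Psmd11, a scaffold subunit, had 186, 190.1 and 191 CPM in knockouts and 204, 194 and 225 CPM in controls. All 3 knockouts lay below all 3 controls, by a log2 fold change of only -0.13, with an SE of 0.15 and an edgeR adjusted p of 0.999. Psmd13 had 72.6, 101 and 68.8 CPM in knockouts and 77.9, 83.6 and 40.9 CPM in controls, a log2 fold change of 0.24 (SE 0.25). The value for Psmd13 was -0.02 without control 3.

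Psmd3, another structural subunit, stood apart from the rest of the 19S particle. It had 14.0, 20.8 and 11.3 CPM in knockouts, against 30.4, 46.2 and 4.72 CPM in controls. Controls 1 and 2 lay above all 3 knockouts, and control 3 lay below them with 6 reads, whose exact Poisson 95% interval is 1.73 to 10.3 CPM. The log2 fold change was -0.93 with an SE of 0.69, the largest SE among the members, and a 95% interval of -2.68 to 0.82 (edgeR adjusted p = 0.999). Without control 3 it was -1.36 (edgeR adjusted p = 0.0699), and without both shallow libraries -1.60 (edgeR adjusted p = 0.0654). Without control 2 it was -0.33 and with the replicate block -0.58. Over the 16 alternative settings the log2 fold change ran from -1.60 to -0.33, and the adjusted p was 0.0654 or higher in all of them. Psmd3 was also the lowest of the non-ATPases per kb, at 7.16 CPM per kb in knockouts and 12.6 in controls, although each 19S particle holds its product beside those of the other genes.

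Of the 6 genes for activators and an inhibitor, 2 lay above 0 and 4 below, with a median log2 fold change of -0.06. Their sum was 354 ± 10.0 CPM in knockouts and 385 ± 75.1 CPM in controls (SD, n = 3 each). The knockouts, at 349 to 366 CPM, lay below controls 1 and 2 (385 and 460 CPM) and above control 3 (310 CPM). Psme1 and Psme2, which encode the interferon-inducible cap, were the most abundant of the 6 genes. Psme1 had 121, 118 and 128 CPM in knockouts and 107, 153 and 123 CPM in controls. Psme2 had 99.7, 116 and 108 CPM in knockouts and 114.5, 142 and 78.6 CPM in controls. Control 2 was the highest of the 6 libraries for both genes. Their log2 fold changes were -0.07 (SE 0.17) and -0.06 (SE 0.20). The level of Psme1 per kb was 0.982 ± 0.0902 of Psme2 in knockouts and 1.03 ± 0.288 in controls (SD, n = 3 each). Psme2b, which is closely related in sequence to Psme2 and whose reads may be divided with it, had 16.9 to 17.9 CPM in knockouts and 14.4 to 17.3 CPM in controls.

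Psme3 encodes the nuclear cap, which serves degradation without ubiquitin. It had 13.4, 26.8 and 13.7 CPM in knockouts, against 46.9, 45.5 and 14.1 CPM in controls. Controls 1 and 2 lay above all knockouts and control 3 lay among them, on 18 reads with an exact Poisson 95% interval of 8.38 to 22.4 CPM, which stays below the other 2 controls. The log2 fold change was -1.07 (SE 0.45, 95% interval -2.10 to -0.05, edgeR adjusted p = 0.999). Without control 3 it was -1.42 (edgeR adjusted p = 0.0571). Without both shallow libraries it was -1.78 and Psme3 was called (edgeR adjusted p = 0.0121), in a fit that called 0.232% of the genes it tested. With no filter on low counts it was -1.11 and called (edgeR adjusted p = 0.0124). The fit without a filter called 102 genes over the whole table, against 7 in the main fit. Over the 16 alternatives Psme3 was called in 2, its log2 fold change ran from -1.78 to -0.83 and its adjusted p from 0.0121 to 1. Per kb, Psme3 stood at 0.0463, 0.0949 and 0.0449 of Psme1 in knockouts and 0.183, 0.124 and 0.0479 in controls.

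**Figure D5:**
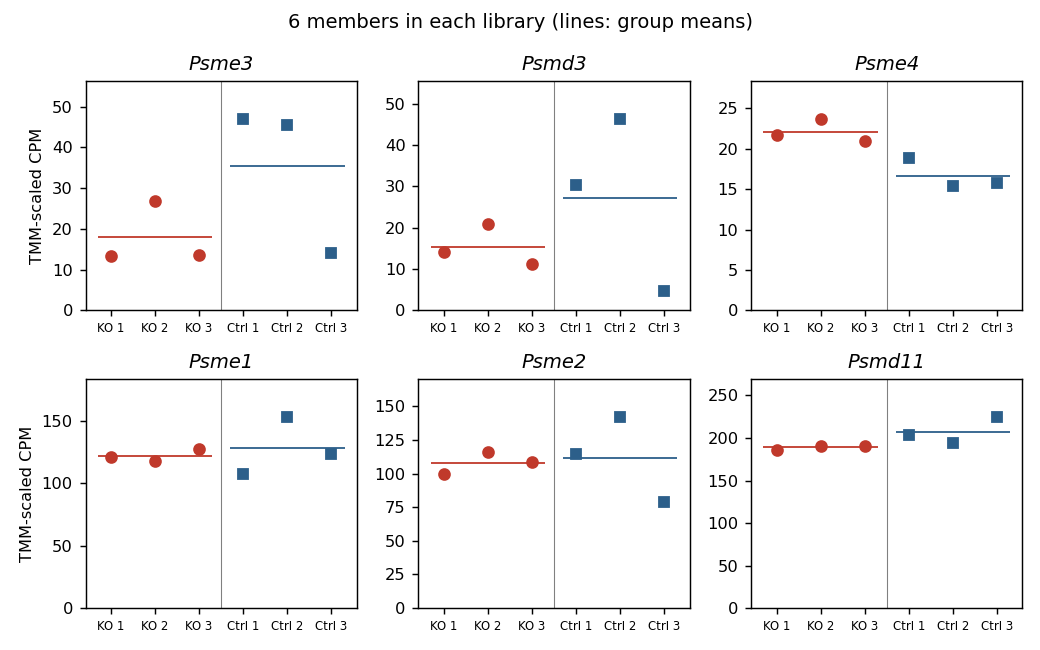
TMM-scaled CPM of 6 members in each library, knockouts as circles on the left and controls as squares on the right, with lines at the group means; axes start at 0. Control 3 lies among the knockouts for Psme3 and below them for Psmd3, whereas the groups do not overlap for Psme4 and Psmd11.

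Psme4, which encodes a monomeric cap known from spermatogenesis and chromatin, had 21.6, 23.6 and 20.97 CPM in knockouts, against 18.9, 15.4 and 15.7 CPM in controls. All knockouts lay above all controls. The log2 fold change was 0.39 (SE 0.24, 95% interval -0.12 to 0.91, edgeR adjusted p = 0.999), and it stayed between 0.31 and 0.51 over the 16 alternatives with none calling it. Psmf1, which encodes an inhibitor of the core that can also act as an adaptor, had 75.4, 47.5 and 78.4 CPM in knockouts and 83.1, 87.0 and 60.5 CPM in controls, a log2 fold change of -0.20 (SE 0.21).

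Promoters are shown for Psme3, the member with the smallest p, for its relative Psme1 and for Psmb6, the most abundant member per kb. Each sequence is the 250 bases before the RefSeq start of the gene in GRCm38.p6, read 5′ to 3′ on the gene's strand. Capitals mark matches to motifs known from promoters of housekeeping and proteasome genes. The motifs were CCAAT (the CCAAT box), TGACNNNGC (the core of the antioxidant response element, bound by NRF1 and NRF2), CCGGAAG (an ETS core) and GGGCGG (the GC box), searched on both strands.
Psme3 at chr11:101315963-101316212 (+): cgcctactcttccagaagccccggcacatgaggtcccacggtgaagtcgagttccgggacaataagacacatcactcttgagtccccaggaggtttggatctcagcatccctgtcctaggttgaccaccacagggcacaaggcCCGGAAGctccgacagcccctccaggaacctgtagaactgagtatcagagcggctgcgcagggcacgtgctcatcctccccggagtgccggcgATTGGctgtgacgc
Psme1 at chr14:55578244-55578493 (+): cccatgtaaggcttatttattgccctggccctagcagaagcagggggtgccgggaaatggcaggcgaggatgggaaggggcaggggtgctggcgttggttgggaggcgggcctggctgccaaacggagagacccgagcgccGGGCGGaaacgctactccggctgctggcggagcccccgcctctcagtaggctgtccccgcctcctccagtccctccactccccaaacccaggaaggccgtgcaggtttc
Psmb6 at chr11:70525107-70525356 (+): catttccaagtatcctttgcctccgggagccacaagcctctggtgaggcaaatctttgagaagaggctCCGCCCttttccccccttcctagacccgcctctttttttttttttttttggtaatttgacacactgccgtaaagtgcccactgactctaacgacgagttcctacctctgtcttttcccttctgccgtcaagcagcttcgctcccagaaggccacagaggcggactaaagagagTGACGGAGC
Counted back from the base before the start as -1, Psme3 has an ETS core from -107 to -101 and a CCAAT box on the other strand from -14 to -10. Psme1 has a GC box from -109 to -104. Psmb6 has the antioxidant core from -9 to -1 and a GC box on the other strand from -182 to -177. No pair of matches overlaps in these sequences.

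A promoter was found for 39 of the 47 members and for 27025 genes in all. The 27025 genes were not matched to the members by expression, so a share particular to proteasome genes cannot be read from the comparison. CCGGAAG occurred in 13 of the 39 member promoters (33.3%), against 7.83% of all promoters of that length, and GGGCGG in 21 (53.8%), against 35.4%. CCAAT occurred in 14 (35.9%), against 37.5%, and TGACNNNGC in 5 (12.8%), against 11.5%. The 5 with TGACNNNGC were those of Psmb5, Psmb6, Psmc6, Psmd12 and Psmd9. A match of letters describes the window and is not a measured site.

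Of the 7 assembly chaperones, 3 lay above 0 and 4 below, with a median log2 fold change of -0.13, or -0.05 without control 3. Their sum was 204 ± 22.4 CPM in knockouts and 207 ± 11.4 CPM in controls (SD, n = 3 each), and 1 of the 7 had an interval inside a 1.5-fold change. Psmd10, or gankyrin, a chaperone of the ATPase ring, had 48.0, 46.2 and 30.6 CPM in knockouts and 39.2, 36.9 and 29.9 CPM in controls, a log2 fold change of 0.22 (SE 0.23). Psmd9, another chaperone of that ring, had 22.9, 23.4 and 20.6 CPM in knockouts and 24.9, 19.01 and 34.6 CPM in controls, a log2 fold change of -0.19 (SE 0.25). Psmg2, a chaperone of the alpha ring, had 28.4, 30.7 and 30.7 CPM in knockouts and 26.0, 37.2 and 40.9 CPM in controls, a log2 fold change of -0.19 (SE 0.22). In these 3 genes the groups overlapped. Psmg4 had 6.84, 8.31 and 6.88 CPM in knockouts, and 8.10, 7.02 and 0 CPM in controls. The 0 in control 3 has an exact Poisson 95% interval that reaches up to 2.90 CPM, which is below the other 5 libraries. The log2 fold change was 0.35 (SE 0.64) with control 3 and -0.07 without it. Psmc3ip, the gene that shares only the prefix, had 2.69, 3.64 and 3.07 CPM in knockouts and 3.29, 3.44 and 1.57 CPM in controls, a log2 fold change of 0.07 (SE 0.57).

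Genes around the proteasome were read from 3 further lists, and 0 of their members passed the edgeR test. Of 9 other components and assembly factors, 6 lay above 0 and 3 below, with a median log2 fold change of 0.09. Usp14, the deubiquitinase that trims chains on the 19S particle, had 122, 104 and 84.6 CPM in knockouts and 95.7, 85.3 and 84.1 CPM in controls, a log2 fold change of 0.23 (SE 0.17). Uchl5, another such deubiquitinase, had 41.2, 32.5 and 28.4 CPM in knockouts and 32.3, 29.2 and 28.3 CPM in controls. Both genes overlapped between the groups. Of 13 ubiquitin genes and shuttle factors, 8 lay above 0 and 5 below, with a median of 0.12. Rps27a, which encodes ubiquitin fused to a ribosomal protein, had 264, 345 and 275 CPM in knockouts and 247, 259 and 178 CPM in controls. The knockouts lay above the controls, by 0.37 on the log2 scale (SE 0.17, edgeR adjusted p = 0.999). Rps27a was the only 1 of the 13 genes without overlap, where 6.59% of all genes tested were higher in knockouts without overlap. The log2 fold change of Rps27a was 0.21 without control 3 and 0.09 without both shallow libraries. This fusion gene has many processed copies in the genome, and its reads may be divided with them. Rad23b, a shuttle factor, had 15.6, 22.3 and 12.3 CPM in knockouts and 15.3, 13.1 and 8.64 CPM in controls. Its log2 fold change was 0.38 (SE 0.32), or -0.03 without both shallow libraries.

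Of 7 genes that control the transcription of proteasome subunits, 1 lay above 0 and 6 below, with a median log2 fold change of -0.44, and 0 passed the test. The median was -0.38 without control 3 and -0.28 without both shallow libraries. Nfyc, a subunit of the factor that binds CCAAT, had 33.4, 34.0 and 26.0 CPM in knockouts, against 43.4, 43.5 and 44.0 CPM in controls. The groups did not overlap, and the log2 fold change was -0.49 (SE 0.20, 95% interval -0.92 to -0.06, edgeR adjusted p = 0.999). Nfya, the subunit that contacts the DNA, had 29.8, 22.6 and 28.7 CPM in knockouts, against 41.4, 35.6 and 33.0 CPM in controls, also without overlap, and a log2 fold change of -0.44 (SE 0.21). Knockouts lay lower without overlap in 2 of the 7 genes and in 4.47% of all genes tested. At an unadjusted edgeR p under 0.05, 1 of the 7, Nfyc, was lower, where 1.98% of all genes tested were lower. Neither Nfyc nor Nfya was called in any of the 16 alternatives. The third subunit gene, Nfyb, had 27.5, 19.5 and 29.9 CPM in knockouts and 27.3, 23.0 and 24.4 CPM in controls, which overlapped. Nfe2l1 encodes NRF1, the factor that restores proteasome genes when the proteasome is inhibited. It had 24.3, 21.3 and 29.8 CPM in knockouts and 39.5, 26.0 and 39.3 CPM in controls, a log2 fold change of -0.45 (SE 0.24). Ngly1, whose product deglycosylates NRF1, had a log2 fold change of -0.44 (SE 0.26). In DESeq2 the adjusted p was 0.819 for Nfyc and 0.995 for Nfya. Across the same libraries the 20S and 19S genes had medians of 0.09 and 0.03, or -0.04 and -0.05 without control 3 and -0.06 and -0.02 without both shallow libraries.

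Some counts could hold reads of neighbouring genes, because no source used here says whether the counting used strand. In GENCODE M21, 5 members share over 10% of their exonic bases with another gene: Psmd9 (25.5%), Psmc3ip (21.2%), Psmb5 (12.1%), Psmb7 (11.8%) and Psmd13 (10.1%). Of the related genes given with values, Usp14 shares 26.0% and Psmb8 14.7%. Ddi2, which enters only the counts and medians of its list, shares 18.3%. Of 5 rows named as pseudogenes of members, Psma5-ps had 326 reads over the 6 libraries, 2.47% of those of Psma5, and the others at most 0.316% of their parent gene.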

How the data were processed

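Raw read counts per gene and library were deposited by the authors, as whole numbers and without normalization, per the file headers. The tools named are STAR, featureCounts of Subread, Salmon and bcl2fastq, and the build GRCm39, per the submitters' processing notes; parameters and strand use are not given in the sources used here. SMARTer Ultra Low was the cDNA kit, per the labels' protocols, and no molecular identifiers were mentioned. The exact Poisson intervals and the floors thus cover counting error only. Intervals of log2 fold changes come from the edgeR fit and include the spread between libraries. Of 55774 rows, 287 repeated an identifier with the same counts and were dropped; 0 rows lacked a gene and 0 value columns lacked a sample. Transcript lengths came from GENCODE M21 (99.4% of identifiers matched), and promoters from RefSeq on GRCm38.p6; both precede GRCm39, so no other coordinates are given.

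The test was that of edgeR 4.0.16 (R 4.3.3) on the counts: its default expression filter, TMM scaling and a robust quasi-likelihood F-test with group as the only term, over all 15787 genes that passed, with Benjamini-Hochberg adjustment and a threshold of 0.05. A positive log2 fold change is higher in knockouts. CPM values are TMM-scaled, and 3 reads corresponded to 0.0762 CPM in the deepest library and 2.39 CPM in the shallowest before that scaling. DESeq2 1.42.0, limma 3.58.1 (voom), other scalings and filters, protein-coding genes alone, a replicate block and leaving out libraries were alternatives. The steps were tested on simulated counts. The labels number the libraries as biological replicates, which were taken as separate mice.

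The members and lists were chosen with earlier results of these data known. Named genes are, per class and by smallest p, 3 members, plus the highest and lowest per kb and up to 2 genes per related list. The other members and related genes described (Psmb5, Psmb7, Psmd2, Psmd4, Psmd14, Psme1, Psme2, Psme2b, Psmg4, Nfyb and Ngly1 among them) are described for their role or after their values were seen. Of the 10 genes listed as other components, 1 (Paaf1) was not matched by symbol.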

Additional observations from a re-analysis of the deposited data

How the results depend on the processing

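No proteasome gene was called in the main fit or in 14 of the 16 alternative settings; the exceptions, with no filter and with the shallow libraries left out, each called 1, Psme3. Over the whole table the main fit called 7 genes, against 102 with no filter, 83 with DESeq2, 15 with limma voom, 2 without the robust option, 39 without the shallow libraries and 2 to 50 with 1 library left out in turn; the highest count was without control 3. The median log2 fold change of the members was -0.06 to 0.11 over all settings. Replicate numbers were not taken to pair the libraries: same-numbered knockouts and controls deviated from their group means with correlations of 0.36, -0.22 and -0.03 over 4260 genes. With the replicate block 25 genes and 0 proteasome genes were called, and the median was 0.06.

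Of 912 values of single genes under alternatives, 92 had another sign than the main value, 17 of them with a move of at least the standard error; the cause was not tested. Without the shallow libraries the log2 fold change was -0.062 for Psma3, -0.089 for Psma2, -0.13 for Psma1, -0.0034 for Psmb4, -0.055 for Psmb2, -0.20 for Psmd13, -0.15 for Psmd4, -0.15 for Psmd8, 0.24 for Psmg3 and -0.029 for Rad23b. With limma voom it was -0.050 for Psmd13 and 0.16 for Psmg3. With 1 library left out in turn it ran from -0.10 to 0.25 for Psma1, -0.23 to 0.14 for Psmb6, -0.016 to 0.42 for Psmd13, -0.12 to 0.22 for Psmd4 and -0.26 to 0.15 for Psme2. Leaving out 1 library left that group with 2. Depth limits members of low level in control 3, where 3 reads correspond to 2.36 scaled CPM, and 95% intervals of assembly chaperones and Psmc3ip reach beyond a 1.5-fold change in all but 1 of the 8.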
